A study of Mus musculus with 6 samples.

Results

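The mitosis and spindle genes are a list of 37 genes for mitotic kinases and cyclins, the spindle checkpoint, kinesins, the kinetochore and condensin, followed here in B16 cells, a mouse melanoma line, under low oxygen. The list was set by gene function, with earlier results of these data known. The array annotation used here named 35 of the 37, and Ccnb1 and Cdca8 were not analysed here. Each gene was represented by its brightest probe set, and genes were described where the mean signal over the 6 arrays was 8 units or more on the deposited linear scale. That left 34 genes, all of which also passed the filter on dim probe sets, among 7746 genes on the arrays. The dimmest gene above the limit was Cdc25c, with a mean signal of 23.5 units, and the gene below it was Cenpe, with 3.14 units. On a log2 reading of the same limit, 12 genes would remain.

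The series asks how B16 melanoma cells respond to low oxygen given steadily or in cycles. There were 6 arrays, 1 per group, so no group had a replicate. Chronic hypoxia was 3 h at less than 1% oxygen, and cyclic hypoxia was 3 periods of 1 h of hypoxia with 30 min of reoxygenation between them. Each was collected at the end of hypoxia or after a further 1 h of reoxygenation, and the normoxia cells were collected at 3 h and 1 h later. Cells of every group had been in medium without serum for 2 h before the exposure. With its pauses, the cyclic regime ran longer than the normoxia exposure of the same collection. By these times the end of cyclic hypoxia was as late as the later normoxia collection. The labels name no normoxia control as long as cyclic hypoxia with reoxygenation. A log2 difference below is hypoxia minus the normoxia array of the same collection, on values floored at 2.10 units.

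Mitotic genes are transcribed late in the cell cycle: their mRNAs build up in G2 and mitosis and are low in resting and early G1 cells. Much of this timing runs through a promoter element called the CHR, with the core letters TTTGAA, bound by the MuvB complexes (DREAM in resting cells, MuvB with B-Myb and FoxM1 in dividing cells), often together with CCAAT boxes bound by NF-Y. Their proteins condense the chromosomes, build the spindle, hold cells at the checkpoint until every kinetochore is attached, and divide the cell. In a culture measured in bulk, fewer cells in G2 and mitosis and less mRNA per cell cannot be told apart.

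The letters TTTGAA, searched on both strands from 250 bases before to 50 bases after the RefSeq start (build GRCm38.p6), were present in 20 of the 27 members with a promoter sequence (74.1%), against 18.1% of all 27025 promoters and 11.3% of the 6408 promoters of genes on the filtered arrays. CCAAT, on either strand, was present in 21 of the 27 members (77.8%), against 37.9% of all promoters. Both were present in 18 members (66.7%), against 7.12% of all promoters. In 18 members TTTGAA lay within 50 bases of the start. This was not counted over all promoters, and the search ended 50 bases after the start, so every match past the start is included. A match of this kind is a description of the letters and not a mapped binding site. No promoter sequence was used for Aurkb, Ccna2, Cdc25c, Kif20a, Tpx2, Incenp and Smc4.

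The 200 bases before the start are shown for 4 members with both motifs, 2 of which were lower after cyclic hypoxia with reoxygenation (Kif11 and Top2a) and 2 of which were close to their normoxia level there (Ube2c and Cdc20). Each is written 5′ to 3′ on the strand of the gene. Capitals mark TTTGAA or its reverse complement TTCAAA, and CCAAT or its reverse complement ATTGG, and the last pair overlap once in Ube2c. The positions are chr19:37376182-37376381, plus strand, for Kif11, chr11:99024190-99024389, minus strand, for Top2a, chr2:164769729-164769928, plus strand, for Ube2c, and chr4:118437344-118437543, minus strand, for Cdc20.
Kif11: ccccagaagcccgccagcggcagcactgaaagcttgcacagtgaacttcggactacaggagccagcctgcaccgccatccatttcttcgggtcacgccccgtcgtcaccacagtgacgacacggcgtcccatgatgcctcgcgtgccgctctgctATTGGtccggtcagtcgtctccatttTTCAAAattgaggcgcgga
Top2a: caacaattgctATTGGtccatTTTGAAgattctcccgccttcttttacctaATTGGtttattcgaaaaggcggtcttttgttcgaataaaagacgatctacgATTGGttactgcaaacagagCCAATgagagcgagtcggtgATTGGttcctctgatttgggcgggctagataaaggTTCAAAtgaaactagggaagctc
Ube2c: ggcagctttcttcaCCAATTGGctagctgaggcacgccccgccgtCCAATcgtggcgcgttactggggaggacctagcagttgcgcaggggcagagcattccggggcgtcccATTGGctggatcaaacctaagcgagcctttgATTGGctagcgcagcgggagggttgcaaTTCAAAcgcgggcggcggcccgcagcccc
Cdc20: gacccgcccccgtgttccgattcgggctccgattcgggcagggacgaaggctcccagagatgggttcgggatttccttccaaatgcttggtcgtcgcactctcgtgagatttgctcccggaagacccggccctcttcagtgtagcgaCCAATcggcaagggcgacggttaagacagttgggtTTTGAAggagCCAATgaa
In all 4, the TTTGAA nearest the start begins between 18 and 29 bases before it. The 4 were chosen because they hold both motifs and for their values. Of the 10 members that were 2-fold or more lower after cyclic hypoxia with reoxygenation, 8 had a promoter sequence and 5 of these held TTTGAA (62.5%), against 15 of the 19 other members with a sequence (78.9%).

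The arrays were close in overall signal. Their trimmed means were all 100 and their medians lay between 15.9 and 19.3 units. The array of cyclic hypoxia with reoxygenation stood apart: it had the lowest median, and its correlation with the rest was the weakest on average (0.940, against 0.962 to 0.966 for the other 5). Its 3′ to 5′ signal ratio was 0.845 for Gapdh, within the 0.799 to 0.900 of the 6 arrays, and 1.17 for Actb, the lowest of the 6. The SD of the differences over all genes was 0.714 in this array and 0.388 between the normoxia arrays. All 6 melanocyte markers measured had mean signals above 100, with sums of 22229 and 23299 units in chronic hypoxia, 18894 and 19942 in cyclic hypoxia, and 17658 and 19650 in normoxia. The sums hide Mitf, the transcription factor of the melanocyte lineage, which had 1256 units at the end of cyclic hypoxia against 2366 in normoxia, and 635 units after cyclic hypoxia with reoxygenation against 2568 in normoxia. It was thus lowest in the same array as the low mitosis genes, and its part in the results was not tested. The 7 fibroblast markers and 4 endothelial markers were below the filter, with sums of 21.1 to 38.5 and 2.64 to 16.05 units over the 6 arrays. Of 5 immune markers 2 passed it (sums of 40.9 to 67.4 units), and of 3 keratinocyte markers 1 did (12.3 to 24.7 units). The part of array quality in the results was not tested.

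In chronic hypoxia the mitosis genes were near their normoxia level on their brightest probe sets. At its end 0 of 34 members were 2-fold or more higher and 0 were 2-fold or more lower, where 2.53% of all genes were higher and 2.36% lower, and the median member difference was 0.05. With reoxygenation the counts were again 0 and 0, where 2.98% of all genes were higher and 1.12% lower (231 and 87 genes, or 177 and 117 with quantile normalization), and the median was -0.10. At the end of cyclic hypoxia 0 members were 2-fold higher and 2, Smc2 and Nuf2, were 2-fold or more lower, against 2.12% and 5.44% of all genes, with 23 of 34 members below 0 and a median of -0.13.

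After cyclic hypoxia with 1 h of reoxygenation, 10 of 34 members were 2-fold or more lower (29.4%) and 0 were higher, where 10.6% of all genes were lower and 3.56% higher. The 10 were Ttk, Smc2, Bub1, Kif11, Top2a, Smc4, Nusap1, Mki67, Mad2l1 and Ccna2. The member median was -0.37, 28 members lay below 0 and 6 above, while the median of all genes was 0.00. Of the genes past 2-fold in this array, 821 were lower and 276 higher, and with each array centred on its median instead these were 621 and 427 and the median of all genes was 0.19. Under that centring 9 members were 2-fold lower (all of the 10 but Ccna2), 24 lay below 0 and the member median was -0.18. This centring shifts every gene of an array alike, so the gap between members and all genes is the same by construction. The shares are also given by brightness. Among genes with a mean signal of 100 units or more, 5 of 21 members were 2-fold lower (23.8%) against 7.61% of 3573 genes, and among dimmer genes it was 5 of 13 members (38.5%) against 13.2% of 4173 genes. These are single arrays, so none of the differences has an error of its own.

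**Figure D1:**
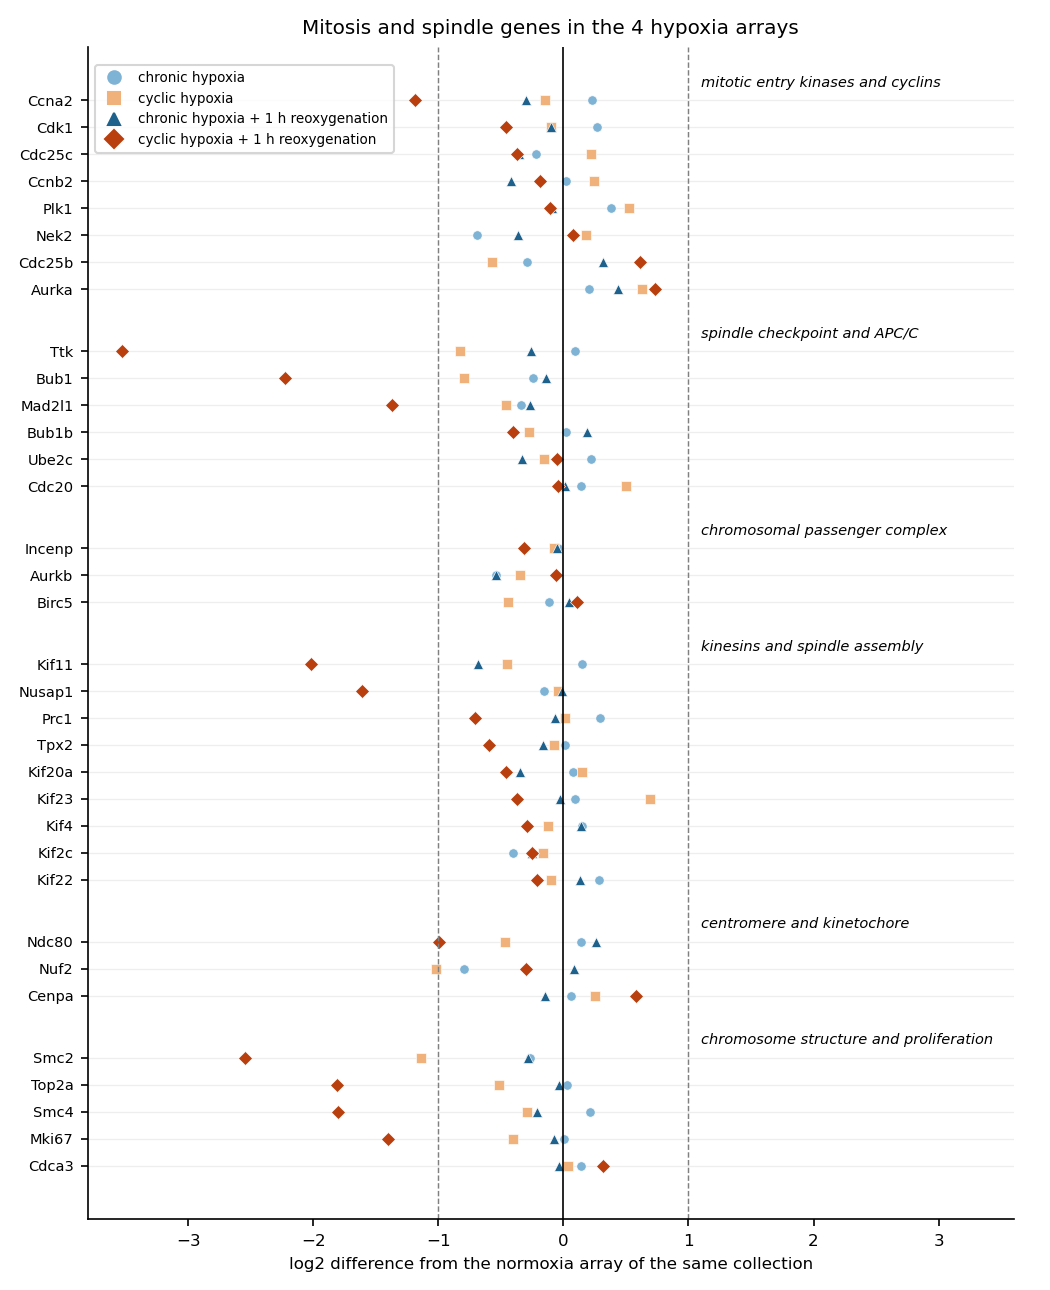
Log2 difference of each of the 34 members from the normoxia array of the same collection, in the 4 hypoxia arrays, with members grouped by role and dashed lines at 2-fold. In cyclic hypoxia with reoxygenation 10 members lie beyond 2-fold on the lower side and 28 lie below 0, while in both chronic arrays every member lies within 2-fold.

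The kinases and cyclins of mitotic entry had a median of -0.15 after cyclic hypoxia with reoxygenation. Cdk1, the kinase that drives cells into mitosis, had 698 units after chronic hypoxia, 543 after cyclic hypoxia and 580 in normoxia. At the reoxygenation collection it had 613 units in the chronic array, 478 in the cyclic array and 659 in normoxia, a log2 difference of -0.46 for cyclic hypoxia. Ccna2, the cyclin partner of Cdk1 and Cdk2 in S phase and G2, was the 1 of 8 members of this group that was 2-fold lower. It stood at 261 units after cyclic hypoxia with reoxygenation, against 593 units in its normoxia array (-1.18).

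Aurka, the Aurora kinase of centrosomes and spindle poles, lay above normoxia in all 4 hypoxia arrays. Its signal was 147 units after chronic hypoxia, 197 after cyclic hypoxia and 127 in normoxia. At the reoxygenation collection it was 159 units in the chronic array, 196 in the cyclic array and 118 in normoxia. The log2 differences were 0.21 and 0.43 in chronic hypoxia and 0.63 and 0.74 in cyclic hypoxia, and both cyclic signals were above both chronic signals, which were above both normoxia signals. Plk1, a kinase of centrosome maturation and mitotic entry, had 158 units after chronic hypoxia, 175 after cyclic hypoxia and 122 in normoxia. At the reoxygenation collection its signal was 146 units in the chronic array and 145 in the cyclic array, against 155 in normoxia. Its hypoxia arrays were higher at the first collection and slightly lower at the other, and the later normoxia array minus the earlier was 0.35.

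The checkpoint kinases had some of the lowest values. Ttk (also called Mps1), which starts checkpoint signalling at unattached kinetochores, had 36.8 units after chronic hypoxia, 19.5 after cyclic hypoxia and 34.6 in normoxia. With reoxygenation it had 35.5 units in the chronic array, 3.68 in the cyclic array and 42.4 in normoxia, a log2 difference of -3.53 or 11.5-fold lower for cyclic hypoxia. The 3.68 units lie above the floor of 2.10 and below the filter of 8.33 units, a range where signal over background is poor. Bub1, the kinase that recruits checkpoint proteins to kinetochores, had 83.7 units after chronic hypoxia, 56.9 after cyclic hypoxia and 98.9 in normoxia. It had 87.2 units in the chronic array, 20.5 in the cyclic array and 96.1 in normoxia at the reoxygenation collection, 4.68-fold lower in cyclic hypoxia (-2.23). For both kinases the cyclic arrays were the lowest 2 of the 6, and the chronic differences lay between -0.26 and 0.09 on the brightest probe sets. The other, dimmer probe set of Bub1 was lower in chronic hypoxia too, with 15.6 units after chronic hypoxia and 14.7 after cyclic hypoxia, against 29.6 in normoxia. At the reoxygenation collection it had 17.5 units in the chronic array and 9.81 in the cyclic array, against 32.7 in normoxia, so its chronic differences were -0.92 and -0.90.

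Mad2l1, the checkpoint protein that holds Cdc20, was dimmest in the same array, with 278 units after cyclic hypoxia with reoxygenation against 716 units in normoxia (-1.37). Bub1b, which forms the inhibitor of the anaphase-promoting complex with Mad2 and Cdc20, was at -0.40 there. Cdc20, the activator of the anaphase-promoting complex, was not among the low genes. It had 598 units after chronic hypoxia, 770 after cyclic hypoxia and 543 in normoxia, and then 699 and 671 units in the chronic and cyclic arrays with reoxygenation, against 693 in normoxia. Ube2c, the ubiquitin-conjugating enzyme of the same complex, was also close to normoxia after cyclic hypoxia with reoxygenation (-0.05). Under median centring Cdc20, Ube2c, Plk1 and Aurkb lay above 0 in that array. Of the 6 checkpoint and anaphase-promoting complex members, 3 were 2-fold lower in that array.

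**Figure D2:**
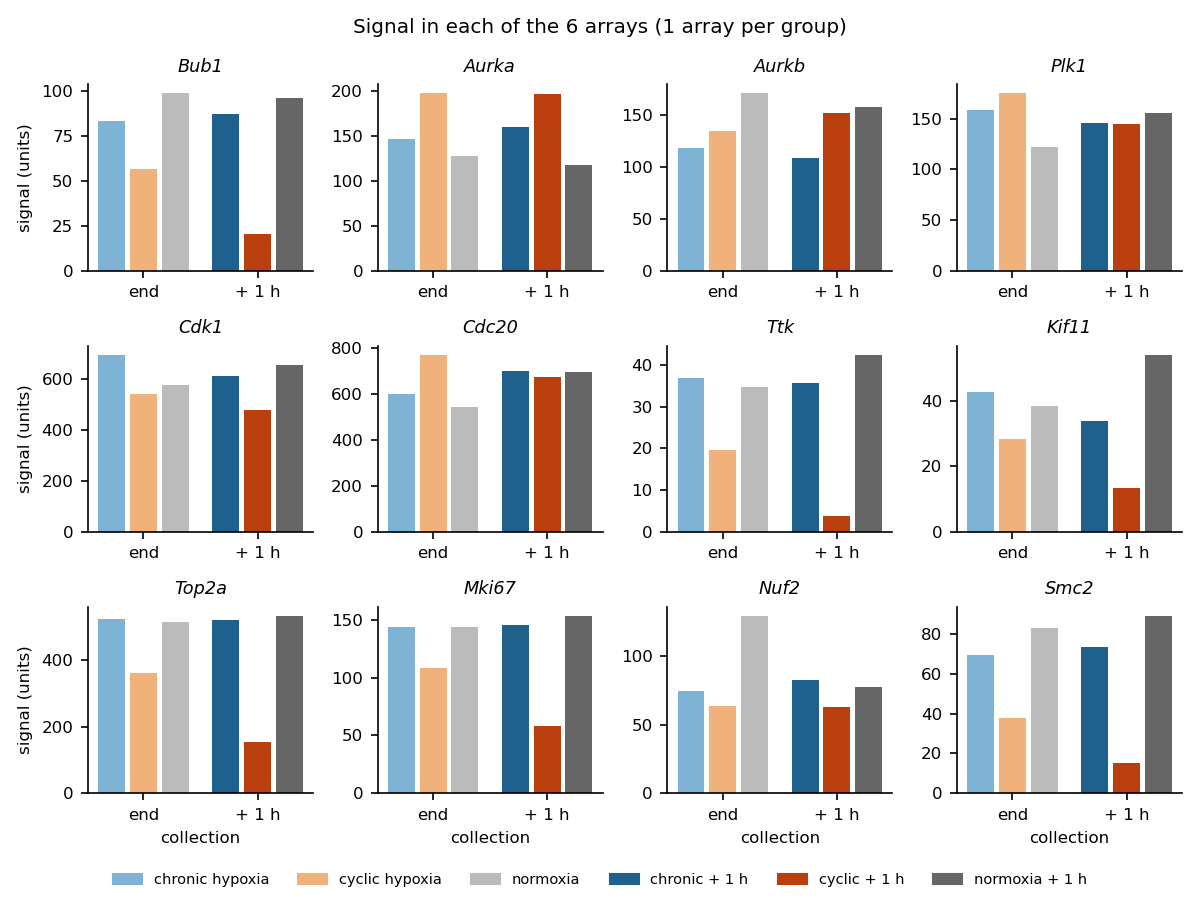
Signal in units on a linear axis in each of the 6 arrays, 1 bar per array, for the 12 members given in every array, with the end of exposure on the left of each panel and 1 h later on the right. Ttk, Bub1, Kif11, Top2a, Mki67, Smc2, Cdk1 and Nuf2 have their lowest bar in cyclic hypoxia with reoxygenation. For Nuf2 it is 63.2 units, against 63.9 at the end of cyclic hypoxia. Aurka lies above normoxia in all 4 hypoxia arrays.

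The chromosomal passenger complex, which corrects faulty kinetochore attachments, had 0 of 3 measured members past 2-fold in any hypoxia array. Aurkb, its kinase, had 118 units after chronic hypoxia, 134 after cyclic hypoxia and 171 in normoxia. After the further hour the chronic array had 109 units, the cyclic array 152 and the normoxia array 158. The chronic arrays were the lowest (-0.54 at each collection), and the cyclic array with reoxygenation was at -0.06. Birc5 (survivin) and Incenp, the other two members measured, were at 0.11 and -0.31 in that array.

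All 9 kinesins and spindle assembly members lay below 0 after cyclic hypoxia with reoxygenation, with a median of -0.46, and 2 were 2-fold lower. Kif11, the motor that pushes spindle poles apart, had 42.9 units after chronic hypoxia, 28.2 after cyclic hypoxia and 38.6 in normoxia. At the later collection the chronic array had 33.8 units, the cyclic array 13.4 and the normoxia array 54.2, 4.04-fold lower in cyclic hypoxia (-2.01) and -0.68 in chronic hypoxia. Its later normoxia array minus the earlier was 0.49, close to the size of the chronic difference. Nusap1, a protein that bundles spindle microtubules, was near normoxia at the end of cyclic hypoxia (119 against 122 units) and was at 36.4 against 111 units with reoxygenation (-1.61). The remaining members of the group were closer to normoxia at the reoxygenation collection of cyclic hypoxia, with Prc1, which bundles antiparallel microtubules in anaphase, at -0.70, Tpx2, the activator of Aurora A, at -0.59, and Kif23, a motor of the central spindle, at -0.37.

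Genes of the centromere and kinetochore went different ways. Nuf2, a subunit of the Ndc80 complex that binds microtubules, had 74.8 units after chronic hypoxia, 63.9 after cyclic hypoxia and 129 in normoxia. With reoxygenation it had 82.3 units in the chronic array, 63.2 in the cyclic array and 77.6 in normoxia. The first normoxia array was the single high value, and the later normoxia array minus it was -0.74, so the 2-fold difference at the end of cyclic hypoxia (-1.02) rests on that array. Ndc80, its partner, was at -0.47 and -0.99 in the cyclic arrays, against 0.14 and 0.26 in the chronic arrays. Cenpa, the histone H3 variant of centromeres, had its highest signal after cyclic hypoxia with reoxygenation, at 322 units against 215 in normoxia (0.58).

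Chromosome structure and proliferation genes held the largest share of low members, with 4 of 5 at 2-fold or more lower after cyclic hypoxia with reoxygenation and a median of -1.80. Smc2, a condensin ATPase that compacts mitotic chromosomes, had 69.2 units after chronic hypoxia, 37.7 after cyclic hypoxia and 83.1 in normoxia. With reoxygenation it had 73.2, 15.3 and 89.2 units in the chronic, cyclic and normoxia arrays. It was the 1 member at 2-fold or more lower in both cyclic arrays (-1.14 and -2.54), a pattern seen in 1.78% of all genes. Smc4, its partner in condensin, was at 30.9 units after cyclic hypoxia with reoxygenation, against 108 units in normoxia (-1.80).

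Top2a, the topoisomerase that untangles sister chromatids, had 524 units after chronic hypoxia, 360 after cyclic hypoxia and 514 in normoxia. After reoxygenation the chronic array had 521 units and the cyclic array 152, against 533 in normoxia, 3.50-fold lower in cyclic hypoxia (-1.81). This was a bright gene whose 4 chronic and normoxia arrays lay between 514 and 533 units. Mki67, the Ki-67 proliferation marker that coats mitotic chromosomes, had 144 units after chronic hypoxia, 109 after cyclic hypoxia and 144 in normoxia. With reoxygenation it had 146, 58.0 and 154 units in the chronic, cyclic and normoxia arrays (-1.41 for cyclic hypoxia). For both genes the cyclic arrays lay below the other 4, which were close together. Cdca3, the fifth gene of the group, was at 0.31 in the array where the other 4 were low.

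The 2 cyclic collections share no array, so each can be set beside the other. Across the 34 members the differences at the end of cyclic hypoxia and with reoxygenation had a Pearson r of 0.60 and a Spearman rho of 0.51, against 0.28 and 0.30 across all 7746 genes. Among genes at or over 100 units on average, r and rho were 0.58 and 0.49 across 21 members and 0.44 and 0.37 across 3573 genes, a smaller gap. These are correlations across genes measured on the same 4 arrays and not across independent samples. Members below 0 at both collections numbered 21 of 34, against 31.5% of all genes, and those above 0 at both numbered 4 (Aurka, Nek2, Cenpa and Cdca3), against 28.8% of all genes. In chronic hypoxia 9 members were below 0 at both collections, against 27.2% of all genes. There r was 0.17 across members and 0.19 across all genes, and among those at or over 100 units it was 0.42 across members and 0.39 across genes.

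The 10 members that were 2-fold lower after cyclic hypoxia with reoxygenation were all below 0 at the end of cyclic hypoxia as well, with a median of -0.45 and a range of -1.14 to -0.04. Of the 24 other members 13 were below 0 there, with a median of -0.08. At the end of chronic hypoxia 4 of the 10 were below 0 and their median was 0.02. The 10 were picked by their values, so this split is a description with no test.

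**Figure D3:**
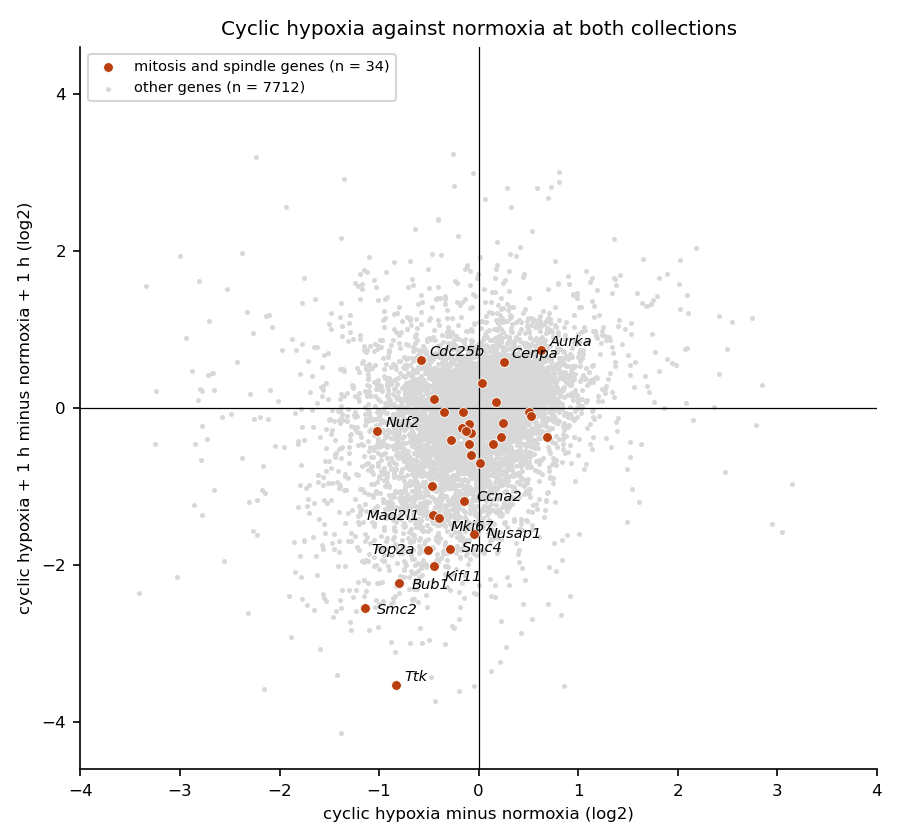
Log2 difference from normoxia at the end of cyclic hypoxia (x axis) against that with 1 h of reoxygenation (y axis), with the 34 members in colour and the other genes in grey. Smc2 is past 2-fold lower on both axes, and 21 members lie in the quadrant below 0 on both.

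Set against chronic hypoxia instead of normoxia, cyclic hypoxia gave like counts. At the end of hypoxia 0 members were 2-fold higher and 0 lower in cyclic than in chronic hypoxia, where 1.23% of all genes were higher and 3.76% lower. With reoxygenation 10 members were 2-fold lower and 0 higher, where 12.6% of all genes were lower and 2.5% higher. Over all genes this was 975 lower and 194 higher, against 732 and 361 with median centring and 804 and 352 with quantile normalization, and under either of these 9 members were lower. Ndc80 (-1.25) stood among these 10 in place of Ccna2, and the other 9 were the same genes. This comparison uses the same cyclic array as the one with normoxia and does not test it afresh.

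Within the cyclic regime, the collection after 1 h of reoxygenation was set against the end of hypoxia. At the later collection 7 members were 2-fold or more lower and 0 were higher, where 7.47% of all genes were lower and 2.9% higher. These were Ttk (-2.41), Nusap1 (-1.71), Bub1 (-1.47), Smc2 (-1.30), Smc4 (-1.26), Top2a (-1.24) and Kif11 (-1.08). The dimmer probe sets of Smc4 above the filter went the other way over this hour (0.40 and 0.88). Those of Kif11 (-1.88 and -2.24) and Bub1 (-0.59) were lower, so the fall in Smc4 rests on its brightest probe set. Over all genes 579 were lower and 225 higher, against 385 and 356 with median centring, where 6 members were lower. Among genes with a mean signal of 100 units or more, 2 of 21 members were lower (9.52%), near the 6.10% of all such genes. Over the same hour 0 members passed 2-fold in chronic hypoxia, where 2.22% of all genes were higher and 1.45% lower, and the members lay between -0.39 and 0.40. In normoxia 0 passed it as well, where 0.865% of all genes were higher and 1.87% lower (67 and 145 genes, or 83 and 101 with quantile normalization), and the members lay between -0.74 and 0.49.

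A limma fit over all 6 arrays, with regime and collection as terms, set these differences against the spread left after both terms. That spread is how far the regimes differed in their change from the first collection to the second. For each probe set limma drew it toward the spread of probe sets of like signal. At an adjusted p under 0.05 over 13556 probe sets it called 0 of 34 members in mean hypoxia (calls over all probe sets: 0.0148% higher, 0% lower), chronic hypoxia (0.0959% higher), cyclic hypoxia (0%), cyclic against chronic hypoxia (0%) and the last hour (0%). At an unadjusted p under 0.05 in cyclic hypoxia, 11 members were lower (32.4%) and 1 was higher, where 10.3% of all genes were lower and 5.44% higher. The 11 were Bub1, Ccna2, Mad2l1, Ttk, Kif11, Top2a, Mki67, Ndc80, Nuf2, Smc2 and Smc4, and the 1 was Aurka. Smc2 had the smallest adjusted p by this limma fit, 0.123, at a log2 difference of -1.84 with a standard error of 0.369. Bub1 followed at -1.51 (standard error 0.378, adjusted p = 0.158 in limma) and Top2a at -1.16 (0.309, adjusted p = 0.172 in limma). Aurka was at 0.68 with a standard error of 0.207 (adjusted p = 0.201 in limma), higher in 4 of 4 hypoxia arrays.

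In chronic hypoxia 1 member, Aurkb, was lower at an unadjusted p under 0.05 and 0 were higher, where 1.54% of all genes were lower and 3.98% higher. In cyclic against chronic hypoxia 11 members were lower and 1, Nek2, was higher at that threshold, against 11.1% and 4.14% of all genes. Mean hypoxia gave 3 lower (Bub1, Mad2l1 and Smc2) and 1 higher (Aurka), against 4.51% and 4.87% of all genes. For the last hour it was 0 and 0, against 0.955% and 1.28%. The fit treats the 2 collections as replicates of a regime, so a member that was low in 1 cyclic array and near normoxia in the other adds to the residual.

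The calls changed when the array at the end of cyclic hypoxia was left out. With the cyclic reoxygenation array alone for its regime, assumed to vary like the others, the limma fit called 10 members in cyclic hypoxia, each lower, where 8.52% of all genes were called lower and 1.19% higher. In mean hypoxia it called 6 members lower, where 2.89% of all genes were lower and 1.08% higher, and in cyclic against chronic hypoxia 11 lower, where 9.62% of all genes were lower and 0.684% higher. The 10 in cyclic hypoxia were those listed above for that array, with Smc2 at -2.54 (adjusted p = 0.00111 in limma) and Ttk at -3.44 (adjusted p = 0.00132 in limma) at the low end. Over the 14 alternatives of the fit the adjusted p in limma ranged from 0.00111 to 0.487 for Smc2 and from 0.00132 to 0.578 for Ttk. Without the cyclic reoxygenation array, 0 members were called. At an unadjusted p under 0.05, 5 were then lower (Bub1, Ttk, Top2a, Nuf2 and Smc2) and 3 higher (Aurka, Cdc20 and Kif23), where 7.58% of all genes were lower and 5.1% higher. The calls therefore rest on 1 array, the one that stood apart from the others in overall correlation.

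Different probe sets of a gene gave a further reading. The 35 named members had 59 probe sets, and 12 members had at least 2 above the filter. After cyclic hypoxia with reoxygenation all passing probe sets of a gene had the same sign in 7 of the 12, and at the end of cyclic hypoxia in 10. In chronic hypoxia it was 8 of the 12 with reoxygenation and 7 at its end. The widest gap at the end of chronic hypoxia was in Kif23, at 0.10 on its brightest probe set and -2.07 on a dim one with a mean of 12.2 units. After cyclic hypoxia with reoxygenation, Kif11 was low on its 3 probe sets (-2.01, -2.64 and -2.59), Bub1 on both of its own (-2.23 and -1.74) and Ccna2 on both (-1.18 and -0.67). The 3 probe sets of Smc4 ranged from -1.80 to -0.46. Those of Aurkb (-0.06 and 0.32), Kif23 (-0.37 and 0.21), Incenp (-0.31 and 0.18) and Kif22 (-0.21, -0.61 and 0.01) differed in sign at sizes under 2-fold. The dimmest probe set of Cdc20, with a mean of 21.2 units, was at 2.09, against -0.05 and 0.17 for its brighter ones. That value rests on the later normoxia array, at 6.01 units against 20.9 in the earlier one. Chronic hypoxia with reoxygenation was at 1.75 on the same probe set.

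**Figure D4:**
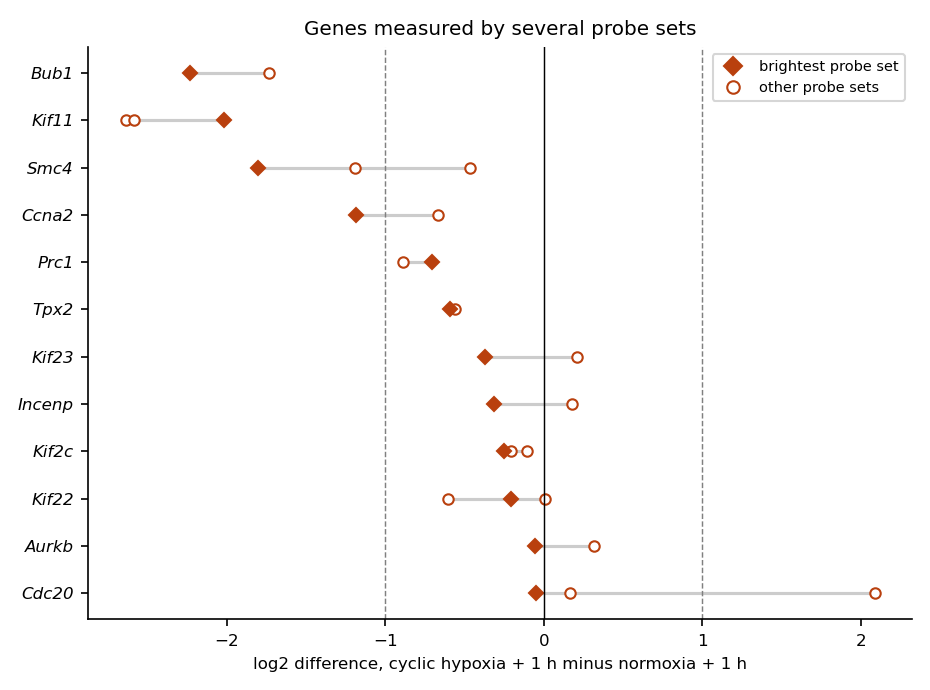
Log2 difference from normoxia in cyclic hypoxia with reoxygenation for every probe set above the filter of the 12 members with at least 2, 1 row per gene, with a filled diamond for the brightest probe set and open circles for the others. The probe sets of Kif11 and Bub1 all lie below -1.7, while those of Aurkb, Kif23 and Incenp fall on both sides of 0.

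Further lists of the cell cycle were described in the same way. Of 39 other mitosis genes on the filtered arrays, 13 were 2-fold lower after cyclic hypoxia with reoxygenation and 5 at its end, with medians of -0.31 and -0.40. These are 33.3% and 12.8% of the list, where 10.6% and 5.44% of all genes were lower. The lowest in the cyclic fit were Kif5b (-1.54) and Cenpc1 (-1.52), a centromere protein. Kif5b is a transport kinesin and not a mitosis gene in the strict sense, yet it is included in all counts of this list. Of 12 condensin and cohesin genes outside the members, 7 were 2-fold lower with reoxygenation (median -1.53) and 3 at the end of cyclic hypoxia (median -0.68), or 58.3% and 25.0% of the list. Ncapg2 and Ncapg, condensin subunits that work with Smc2 and Smc4, were at -2.72 and -2.42 with reoxygenation. The rest of the 7, which were most of them, were cohesin subunits or genes that load or regulate cohesin. The lowest of the 7 was the cohesin subunit Stag2 (-2.83). In chronic hypoxia the medians of this list were -0.18 and 0.11, with 0 genes past 2-fold.

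Of 29 DNA replication genes 3 were 2-fold lower after cyclic hypoxia with reoxygenation (median -0.50) and 4 at its end (median -0.48). That is 10.3% with reoxygenation, close to the 10.6% of all genes, and 13.8% at the end, against 5.44% of all genes. The list median was also below 0 in chronic hypoxia, at -0.33 at its end and -0.25 with reoxygenation. Its lowest genes in the cyclic fit were Tyms, the thymidylate synthase, and Ccne2, a cyclin of S phase entry, at -2.88 and -2.87. Of 18 regulators of G2/M transcription 3 were 2-fold lower with reoxygenation (16.7%, against 10.6% of all genes, median -0.28), among them Rbl1 (-1.43), the p107 pocket protein, and Rb1 (-1.23), the retinoblastoma protein. The 11 subunits of the anaphase-promoting complex and the 7 tubulins had 0 genes 2-fold lower in that array, with medians of 0.05 and 0.16. The 4 CDK inhibitors likewise had 0, with a median of -0.08. At an unadjusted p under 0.05 in the cyclic fit, 15 replication genes, 14 other mitosis genes and 6 condensin and cohesin genes were lower, against 10.3% of all genes, and limma called 0 genes of each list after adjustment.

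**Figure D5:**
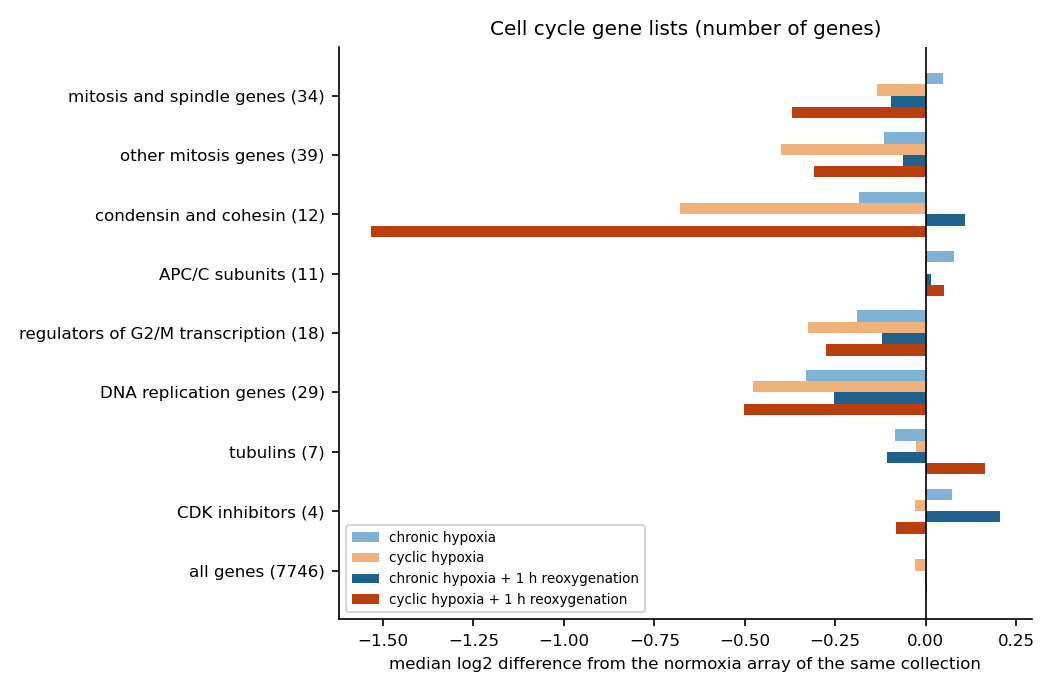
Median log2 difference from the normoxia array of the same collection in the 4 hypoxia arrays (bars), for the 34 mitosis and spindle genes, the other cell cycle lists and all genes, with the number of genes of each list in brackets. In cyclic hypoxia with reoxygenation the condensin and cohesin median is at -1.53 and that of the tubulins at 0.16.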

How the data were processed

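Transcripts of B16 cells were measured on 6 Affymetrix arrays, 1 per group, each hybridised with biotinylated cRNA (5 µg of total RNA per sample). The deposited values are linear intensity units of 22690 probe sets, made by the authors with GCOS per the submitters' processing notes, and its version, algorithm and scaling are not given in the sources used here. The trimmed mean of each array (2% off each end) was 100, so the authors' scaling was kept.

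From these, values under the 20th percentile (2.10 units) were raised to it before log2, and 64 control probe sets were left out, as were those whose mean signal was below 8.33 units (the 40th percentile), leaving 13556. The platform annotation, updated by Entrez identifier, named 1 gene for 20393 probe sets, several for 691 and none for 1606. Each gene was represented by its brightest probe set. Array signals carry no counts, so the number of arrays limits the precision.

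Differences of single arrays were counted at 2-fold without a test. All tests were moderated, two-sided limma tests (limma 3.58.1, R 4.3.3) with regime and collection as additive terms, an intensity trend, 2 residual degrees of freedom and Benjamini-Hochberg adjustment over all 13556 probe sets at 0.05, and the fit was tested on simulated data. Nothing in the labels says that arrays come from separate cultures, so p-values measure only the spread between these arrays.

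The members and gene lists were chosen with earlier results of these data known. Members were given in every array if the fit called them, if they were 2-fold from normoxia in the same direction at both collections of a regime, if they were among the 4 highest or lowest in a contrast with normoxia and at least 2-fold there, or if they were Cdk1, Ccnb1, Aurka, Aurkb, Plk1, Bub1, Cdc20, Top2a or Mki67. From each other list, at most the 2 highest and 2 lowest genes in mean or cyclic hypoxia were named, and Stag2 was added after its value was seen. Further members named in the text were chosen after their values were seen. Alternatives covered scaling, floor, filter, probe set choice, trend, collection term, control array and each array left out. Promoter sequences are RefSeq's for GRCm38.p6.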

Additional observations from a re-analysis of the deposited data

Results flagged for a closer look

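In 5 of 34 members (14.7%) both cyclic arrays lay on one side of normoxia and both chronic arrays on the other, against 9.28% of all genes. Whether these shares differ was not tested. The limma fit of cyclic minus chronic hypoxia gave a difference for each of the 5. They were picked by the signs of the same values, so the fit does not test the pattern afresh. For Ndc80, a kinetochore subunit, the cyclic differences were -0.47 and -0.99 and the chronic ones 0.14 and 0.26, and the fitted difference was -0.9287 (adjusted p = 0.258 in limma). For Nek2, a kinase of centrosome separation, the cyclic differences were 0.18 and 0.08 and the chronic ones -0.69 and -0.36, with a fitted difference of 0.6532 (adjusted p = 0.343 in limma). Bub1b had a fitted difference of -0.4423 (adjusted p = 0.393 in limma), Kif22, a chromosome-binding kinesin, of -0.3656 (adjusted p = 0.343 in limma), and Kif4, another chromosome-binding kinesin, of -0.3527 (adjusted p = 0.564 in limma). In these 3 genes the cyclic arrays were below normoxia and the chronic arrays above it, for Bub1b by only 0.02 at the end of chronic hypoxia. None of the 5 differences passed the adjustment. The pattern was not seen for Bub1b with quantile normalization or for Kif22 with the mean of its probe sets.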

How the results depend on the processing

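With 1 array per group, no difference between single arrays has an error. Alternative values were set beside the 65 counts and medians behind the comparisons. A count was close within 1.5 times, and a median within 0.388, the SD of all differences between the normoxia arrays. By this rule 530 alternative values stayed close and 15 did not. The limit for a median is wider than each member median against normoxia, so such a median could reach 0 and count as close. For those medians the rule therefore shows little. The 2 members 2-fold lower at the end of cyclic hypoxia became 1 with median centring, 0 with 16 units added to every value, 0 among bright genes (mean signal at or over 100 units), and 1 against the mean of both normoxia arrays, a control chosen after seeing the data. The 10 members lower after cyclic hypoxia with reoxygenation became 5 among bright genes, the 10 lower against chronic hypoxia with reoxygenation became 4, and the 7 lower in the last hour of the cyclic regime became 2 there and 2 with 16 units added. With the mean of all probe sets of a gene, 1 member was 2-fold higher in cyclic than in chronic hypoxia at the end of hypoxia, against 0. The cause was not tested, beyond fewer genes entering the bright set. The condensin and cohesin median after cyclic hypoxia with reoxygenation was -0.79 with 16 units added and -0.56 among bright genes, against -1.53.

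In the limma fit, members called in cyclic hypoxia numbered 0, and 1 (Smc2) with median centring. Leaving out each array in turn gave 0 to 6 members called in mean hypoxia, 0 to 10 in cyclic hypoxia and 0 to 11 in cyclic against chronic hypoxia, with calls made when the array at the end of cyclic hypoxia was left out. Over all alternatives the probe sets called ranged from 0 to 518 in mean hypoxia (2 as reported), 0 to 70 in chronic hypoxia (13), 0 to 1268 in cyclic hypoxia (0) and 0 to 1333 in cyclic against chronic hypoxia (0), and stayed at 0 for the last hour. After cyclic hypoxia with reoxygenation the genes 2-fold lower numbered 821, against 411 with 16 units added, 1268 of 12393 without the filter and 272 among bright genes. The fit matches arrays by collection, and without that term 0 members were called in mean, chronic or cyclic hypoxia or between the hypoxia regimes. No paired analysis by replicate number was possible because each group has 1 array. Signal over background limits Ttk most, at -1.57 with 16 units added against -3.53.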
